A study of Mus musculus with 10 samples.

Results

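The AP-1 transcription factor genes described here are Fos, Fosb, Fosl2, Jun, Junb, Jund, Atf3 and Batf, 8 of the 54838 gene identifiers in the count table, chosen by symbol. They were measured in group 2 innate lymphoid cells (ILC2), lymphocytes without antigen receptors that make type 2 cytokines, by total RNA sequencing of cells sorted from the lung after papain, a protease allergen, had been used to inflame it. The 5 KO libraries came from C57BL/6 mice that lack c-Maf, the product of Maf, and the 5 WT libraries from wild-type littermates housed with them. All 10 libraries share the papain challenge and a sort for lineage-negative cells carrying CD90.2, whether or not they showed ST2 or KLRG1. The labels give neither the age of the mice, nor the allele, nor any Cre line behind the deletion. Whether each library is 1 mouse is not said, and the p-values thus describe variation among these libraries, which may be technical.

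AP-1 is a dimer of basic leucine zipper proteins. FOS proteins bind DNA only when paired with a JUN protein, JUN proteins also pair with each other, and ATF3 and BATF compete for the same partners. Most of these genes are immediate early genes, transcribed within minutes of a stimulus from MAP kinase or calcium pathways and silenced soon after. In lymphocytes BATF joins a JUN protein and IRF4 on composite sites, and in T helper 2 cells c-Maf and JUNB act together on the Il4 promoter.

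Promoter sequence is shown for 3 members whose counts followed different courses. Fos was found in every library, Atf3 was called higher in KO in some fits, and Batf had no count in KO. Each line is the 150 bases before the RefSeq start of transcription (GRCm38.p6), written 5′ to 3′ on the strand of the gene, with TGACG on either strand and TATAAA in capitals. The Fos window is chr12:85473740-85473889 on the plus strand, the Atf3 window chr1:191183334-191183483 on the minus strand, inside the longer annotated Atf3 gene, and the Batf window chr12:85686570-85686719 on the plus strand.
Fos: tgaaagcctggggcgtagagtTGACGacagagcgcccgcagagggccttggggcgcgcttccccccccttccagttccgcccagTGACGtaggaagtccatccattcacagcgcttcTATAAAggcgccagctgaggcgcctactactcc
Atf3: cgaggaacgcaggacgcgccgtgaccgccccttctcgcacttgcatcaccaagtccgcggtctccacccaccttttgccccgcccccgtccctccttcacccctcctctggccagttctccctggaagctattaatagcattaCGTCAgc
Batf: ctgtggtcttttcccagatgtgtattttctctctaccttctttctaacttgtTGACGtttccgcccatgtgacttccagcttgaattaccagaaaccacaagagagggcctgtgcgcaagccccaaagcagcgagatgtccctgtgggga

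All 8 members had a RefSeq window from 250 bases before to 50 bases after the start. TGACG, the core of the cyclic AMP response element, was found on either strand in 5 of 8 members (Fos, Fosb, Junb, Atf3 and Batf), against 20.8% of all 32851 windows. The full element TGACGTCA, which contains TGACG, was in 0 of the 8 members' windows, against 1.79% of all windows. The AP-1 element TGACTCA, the MAF element core TGCTGAC and the CArG box of serum response factor were also in 0 of these 8 windows. They were in 5.2%, 4.67% and 1.63% of all windows. Sequence outside the windows was not searched. TATAAA was in 2 of 8 members (Fos and Junb), against 13.6% of windows, and the GC box GGGCGG in 6 of 8, against 35.7%. The RefSeq start of Jund lies 1210 bases before the annotated gene, so its window may not be the one in use. A match of letters is a description and not a bound site.

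The KO libraries were shallower and less even than the WT libraries. They held 3620002 to 9867580 counts, against 21400938 to 24489987 in WT, and their scaling factors by TMM, edgeR's correction of library size for a few dominant genes, were 0.1803 to 0.9276, against 1.462 to 1.908 in WT. KO library 1 stood apart, with 93.4% of its counts in 100 genes. Maf had 0, 0, 0, 108 and 0 counts in KO libraries 1 to 5, against 1412 to 3832 counts in WT. Of 8 ILC2 markers, 7 had over 3 counts in every KO library and 8 in every WT library, and their summed level was 748 to 15005 CPM (counts per 1000000 counts of the library) in KO and 4632 to 7812 CPM in WT. The 748 CPM was KO library 1, and the other 4 KO libraries held 5445 to 15005 CPM. Markers of other cells also differed: the 4 globin genes summed to 189610 CPM in KO library 1 and 107 to 748 CPM in the other KO libraries, against 1.39 to 9.19 CPM in WT, and 6 macrophage and dendritic markers to 0 to 6.31 CPM in KO (Cd68 and Itgax at 0) and 2.86 to 563 CPM in WT. The 3 fibroblast markers reached 550.1 CPM in KO library 1 and were at 0 in WT, 4 B cell markers reached 186 CPM in KO library 4 and at most 6.73 CPM in WT, and 3 NK cell markers were at 0 throughout. The 3 endothelial markers summed to 0 to 13.7 CPM in KO and 37.4 to 166 CPM in WT, with Cdh5 and Cldn5 at 0 in both.

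Of the 8 members, 4 had over 3 counts in every KO library, 1 lacked them in 1 KO library, 2 in 2 and 1 in all 5, and every WT library held more than 3 counts of each member. Of the 7490 genes tested, 7.06% had over 3 counts in every KO library and 22.3% in none of them. All 8 members passed the filter on low counts. When all 7490 genes were tested by edgeR's quasi-likelihood method, with Benjamini-Hochberg adjustment and a threshold of 0.05, 1 member was lower in KO (Batf), where 27.1% of tested genes were lower. 1 member, Atf3, was higher in that fit, where 1.5% of tested genes were higher. The other 6 members did not pass. The median log2 fold change was 0.61 over the 8 members and −0.47 over all tested genes. Scaling by library size alone put that all-gene median at −1.77, and RLE size factors put it at 0.093. With limma-voom, which kept the TMM scaling, it was −3.58. The zero point of a fold change thus moves with the scaling and the method, and each value is best read against it. The sign of a member also differed between measures with TMM. The difference in mean log2(TMM-scaled CPM + 1) was negative for Fosl2 (−0.91), Junb (−0.48) and Jund (−1.28), whose edgeR values were positive.

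**Figure D1:**
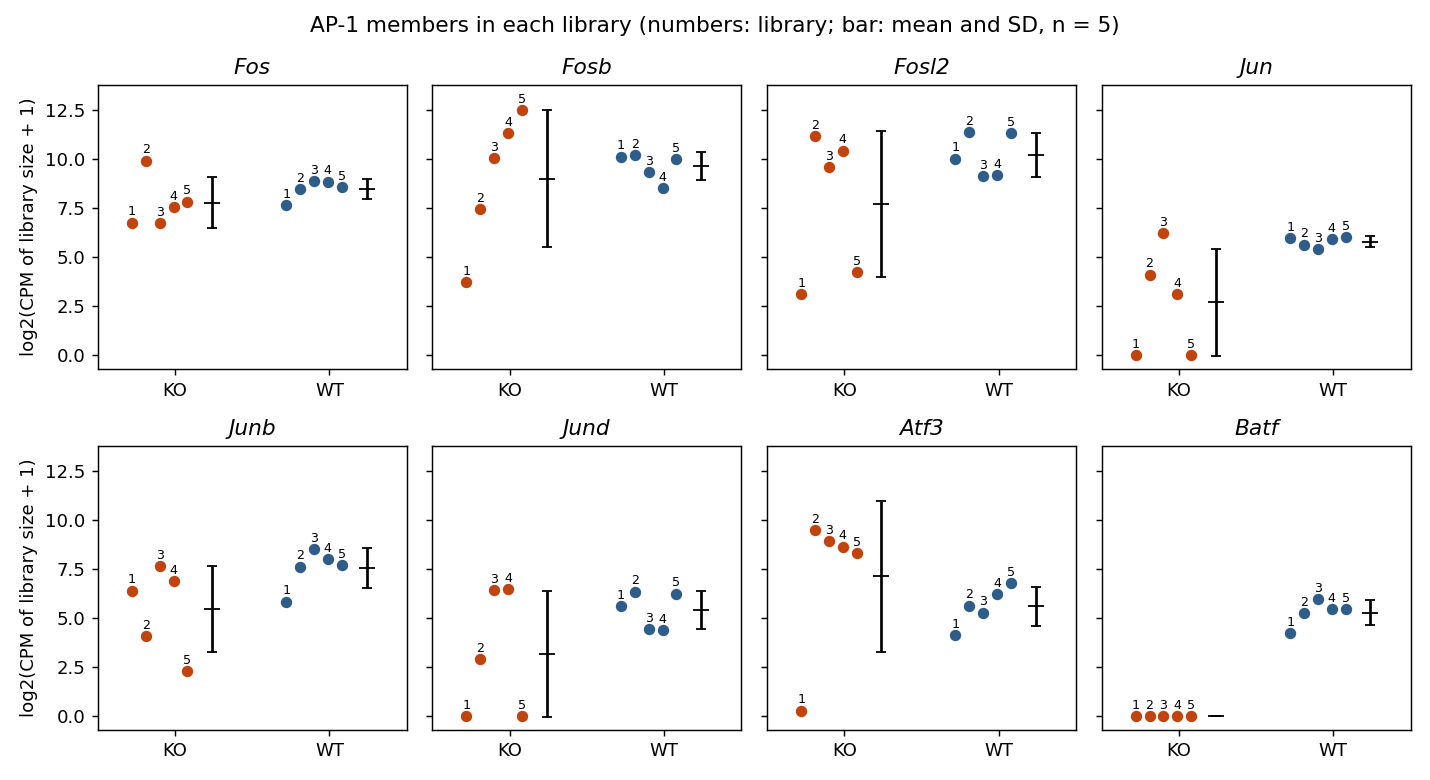
Level of each AP-1 member in each library as log2(CPM of library size + 1), KO at the left and WT at the right of each panel; each point is 1 library with its number, and the bar gives mean and SD (n = 5). Atf3 in KO libraries 2 to 5 lies above every WT library, Batf in all 5 KO libraries is at 0, and the KO points of the other members spread more widely than the WT points.

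Among the FOS members, Fos, the classic immediate early gene, stayed present in every library (ENSMUSG00000021250, GRCm38 chromosome 12, 85473890 to 85477273, plus strand). It had 513, 8890, 923, 1878 and 828 counts in KO libraries 1 to 5, against 4852, 8639, 10218, 11220 and 8846 counts in WT libraries 1 to 5. How these compare depended on the scaling. Per library size the level was 322 ± 371 CPM in KO and 375 ± 111 CPM in WT (SD, n = 5 each), with 3 KO libraries below every WT library and 1 above. Per TMM-scaled size it was 539 ± 477 CPM in KO and 218 ± 63.2 CPM in WT, with 1 KO library below and 3 above. The edgeR log2 fold change was 1.31 (SE 1.11, adjusted p = 0.445), and −0.18 with library size alone.

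Fosb, which encodes FOSB and its truncated form and lies on chromosome 7 (19302696 to 19310051, minus strand), had the highest KO mean of the 8 genes. Its counts were 58, 1604, 9244, 25362 and 21088 in KO libraries 1 to 5, against 27231, 29049, 14018, 8884 and 24150 in WT libraries 1 to 5. KO libraries 4 and 5 were above every WT library per library size, and KO libraries 1 and 2 below every one. The TMM-scaled level was 2886 ± 3823 CPM in KO and 519 ± 223 CPM in WT, with a log2 fold change of 2.47 (SE 1.16, edgeR adjusted p = 0.135). Without KO library 1 it was 3.05 and passed (edgeR adjusted p = 0.0151), and it passed with DESeq2 (adjusted p = 0.0257). Without KO library 5 it was 1.32 (edgeR adjusted p = 0.397), without KO libraries 1 and 5 it was 1.66 (edgeR adjusted p = 0.113), and with library size alone 1.25 (edgeR adjusted p = 0.494).

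Fosl2 encodes FRA2, a FOS protein that lacks the strong activation domain of FOS, and lies on chromosome 5 (32135801 to 32157842, plus strand). Its counts fell into a high and a low set in KO, at 37, 21045, 6676, 13794 and 65 in KO libraries 1 to 5, against 25206, 66593, 12084, 14288 and 61409 in WT libraries 1 to 5. KO libraries 1 and 5 were below every WT library, and the others overlapped the WT range per library size. The TMM-scaled level was 1222 ± 1342 CPM in KO and 857 ± 558 CPM in WT (log2 fold change 0.51, SE 1.19, edgeR adjusted p = 0.802). With library size alone the log2 fold change was −0.71.

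The JUN members had fewer counts and were missing from more KO libraries. Jun, which encodes the main partner of FOS, is a single-exon gene on chromosome 4 (95049034 to 95052222, minus strand). It had 0, 148, 651, 75 and 0 counts in KO libraries 1 to 5, against 1498, 1201, 889, 1428 and 1521 in WT libraries 1 to 5. Its level per library size had the smallest coefficient of variation of the 8 genes in WT, 17.7%, and the largest in KO, 160%. Of the KO libraries, 4 were below every WT library and library 3 was above every one, and the edgeR log2 fold change was −0.41 (SE 1.63, adjusted p = 0.89). The exact two-sided permutation test of log2(TMM-scaled CPM + 1) gave p = 0.167, with an adjusted p of 0.284 over all tested genes. With library size in place of TMM its exact p was 0.0476 and the adjusted p 0.0819. Junos, an antisense gene, overlaps 689 bases of Jun, and the strand setting of the counting is not given in the sources used here, so these counts are uncertain. Junos had 857 counts in KO library 3, the library in which Jun was high, 0 to 30 counts in the other KO libraries and 9 to 103 counts in WT libraries.

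Junb, which encodes the JUN protein tied to T helper 2 cytokines, was present in every KO library (chromosome 8, 84974484 to 84978718, minus strand). Its counts were 396, 145, 1709, 1151 and 14 in KO libraries 1 to 5, against 1354, 4795, 7887, 6231 and 4796 in WT libraries 1 to 5. The TMM-scaled level was 178 ± 187 CPM in KO and 126 ± 71.9 CPM in WT, while per library size it was 83.4 ± 79.1 CPM in KO and 217 ± 113 CPM in WT. The edgeR log2 fold change was 0.50 (SE 1.36, adjusted p = 0.833), −1.31 with library size alone and −0.26 without KO library 1. Prdx2 overlaps 351 bases of Junb and had 112, 0, 0, 0 and 0 counts in KO libraries 1 to 5, against 104 to 1159 counts in WT libraries, so the Junb counts are uncertain too.

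Jund, which encodes the JUN protein that is usually present in resting cells, is also a single-exon gene (chromosome 8, 70698949 to 70700616, plus strand). It had 0, 59, 725, 860 and 0 counts in KO libraries 1 to 5, against 1153, 1979, 440, 476 and 1746 in WT libraries 1 to 5. KO libraries 3 and 4 were above every WT library and the other 3 below every one. The TMM-scaled level was 46.2 ± 59.8 CPM in KO and 28.1 ± 15.4 CPM in WT (edgeR adjusted p = 0.808, log2 fold change 0.72, SE 1.71), and with library size alone the log2 fold change was −0.39. Another annotated gene, Gm11175, at 0 in every library, overlaps 919 of the 1668 bases of Jund, so its counts are uncertain. The 2 KO libraries that lacked Jun, libraries 1 and 5, were the same 2 that lacked Jund, and they had the smallest totals of the series.

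Atf3, a stress-induced gene whose protein mostly represses, was the member called higher in KO with edgeR (ENSMUSG00000026628, chromosome 1, 191170296 to 191218039, minus strand). It had 1, 6590, 4199, 3942 and 1147 counts in KO libraries 1 to 5, against 401, 1188, 808, 1774 and 2534 in WT libraries 1 to 5. KO libraries 2 to 5 were above every WT library on both scales, and KO library 1 was below every one. The TMM-scaled level was 526 ± 351 CPM in KO and 31.8 ± 17.5 CPM in WT, and per library size 386 ± 264 CPM in KO and 57 ± 35.3 CPM in WT. The edgeR log2 fold change was 4.05 (SE 1.48, adjusted p = 0.0486), at the edge of the threshold. At least 4 of the 5 KO libraries were above every WT library for 2.36% of tested genes, and of the 1692 tested genes at 20 to 50 TMM-scaled CPM in WT, the level class of Atf3, 7 were higher in KO (0.414%).

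The Atf3 call held in 6 of 11 fits that left out libraries and in 3 of 8 other alternative fits. Its direction held in each of them. The exact two-sided permutation test over all 10 libraries gave p = 0.135 (adjusted p = 0.246), where 0.975% of tested genes were called higher. Without KO library 1 the exact p was 0.00794, the lowest possible with 4 and 5 libraries, with an adjusted p of 0.0355, and the edgeR log2 fold change was 4.45 (adjusted p = 0.00619). The edgeR adjusted p was 0.185 with library size alone, and between 0.0928 and 0.125 when WT library 1, 2, 3, 4 or 5 was left out. In KO libraries 2 to 5, where Atf3 was high, the macrophage and dendritic markers summed to at most 2.49 CPM, against at least 2.86 CPM in WT, and the fibroblast markers to at most 0.552 CPM, against 0 in WT. The B cell markers summed to 186 CPM in KO library 4, against at most 6.73 CPM in WT. The T cell markers summed to 0.552 to 23.5 CPM in KO libraries 2 to 5, against 17.7 to 129 CPM in WT. The part of other cells in the Atf3 difference was not tested. The globin genes stood above the WT range in all 5 KO libraries. With globin, mitochondrial and small structural RNA genes left out, the log2 fold change of Atf3 was 4.05 (edgeR adjusted p = 0.0462). With every library thinned to the smallest total it was 3.94 (edgeR adjusted p = 0.0572).

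Ratios within a library do not depend on the scaling between libraries. Atf3 had 0.00195, 0.741, 4.55, 2.1 and 1.39 counts per Fos count in KO libraries 1 to 5, against 0.0826, 0.138, 0.0791, 0.158 and 0.286 in WT libraries 1 to 5. The same 4 KO libraries were thus above every WT library. Per Junb count, Atf3 had 0.00253, 45.4, 2.46, 3.42 and 81.9 counts in KO libraries 1 to 5, against 0.296, 0.248, 0.102, 0.285 and 0.528 in WT libraries 1 to 5. With KO library 1 included, neither ratio passed the exact two-sided permutation test of its log2 (p = 0.444 for Fos and 0.254 for Junb, adjusted p = 0.444 for both of the 2 ratios tested). Both ratios were chosen after their values were seen.

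Batf, the lymphocyte AP-1 factor that binds with IRF4, was the member that fell (ENSMUSG00000034266, chromosome 12, 85686669 to 85709087, plus strand, 22419 bases with 3 merged exons). It had 0 counts in each of the 5 KO libraries, against 427, 902, 1334, 1021 and 1010 counts in WT libraries 1 to 5. In WT that was 23.6 ± 10.2 CPM per TMM-scaled size and 40.5 ± 16 CPM per library size. Taking 3 counts summed across the KO libraries as the floor, Batf was at least 187-fold lower in KO by TMM and at least 479-fold lower per library size, bounds that cover counting error only (edgeR adjusted p = 0.00163). In the exact two-sided permutation test Batf reached the lowest p possible with 5 libraries a group, 0.00794 (adjusted p = 0.0268), where 32.2% of tested genes were called lower.

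Every KO library was below every WT library for 28.9% of tested genes, so the separation of Batf is shared by many genes in these libraries. Of the 1692 tested genes at 20 to 50 TMM-scaled CPM in WT, 30 (1.77%) were at 0 in all 5 KO libraries, and 222 (13.1%) had at most 3 counts in each of them. In bulk libraries, fewer cells that express a gene and less RNA per cell cannot be told apart. By counting error alone, a KO level of Batf under 0.124 TMM-scaled CPM, or 0.0834 CPM per library size, could be missed. The KO libraries had any count for 4052 to 7660 genes, against 10577 to 12744 genes in the WT libraries. The part of genes missing from KO libraries in the Batf difference was not tested. Batf is also a gene of T cells and dendritic cells, which a sort for lineage-negative cells is meant to remove, though the labels do not list its antibodies. The 5 T cell markers summed to 0.552 to 23.5 CPM in KO and 17.7 to 129 CPM in WT, and the 6 macrophage and dendritic markers to 0 to 6.31 CPM in KO and 2.86 to 563 CPM in WT. Their part in the Batf difference was not tested. The Batf call held in all 19 other fits, with adjusted p-values of 4.55e-06 to 0.00927.

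**Figure D2:**
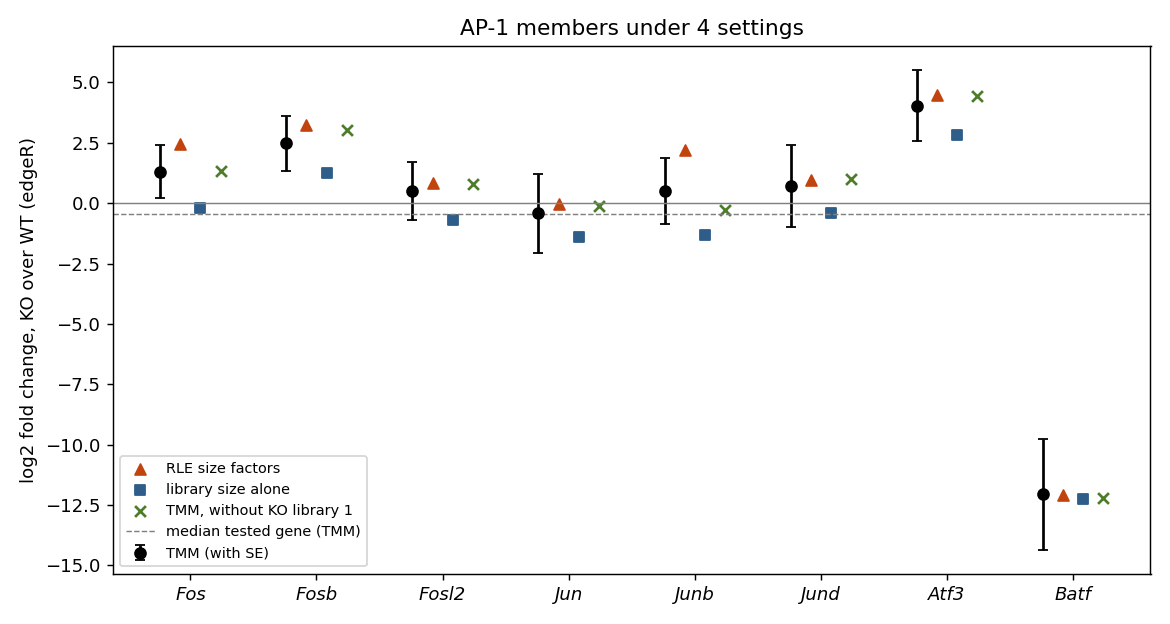
edgeR log2 fold change, KO over WT, of each AP-1 member with TMM scaling (black, with its SE), RLE size factors, library size alone, and TMM without KO library 1; the dashed line is the median tested gene at −0.47. Atf3 lies above 0 and Batf far below 0 in all 4 settings, while Fos, Fosl2, Junb and Jund change sign with library size alone; the value of Batf is fitted against KO libraries at 0 and is not a bound.

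FOS members made up most of the AP-1 counts in all 10 libraries. Fosb or Fosl2 was the most abundant of the 8 genes by counts in 4 of 5 KO libraries and 5 of 5 WT libraries, and Fos in KO library 1. Fosb took 38.7 ± 36.2% of the 8 genes' counts in KO and 28.2 ± 9.45% in WT, and ranged from 4.17 to 91.1% among KO libraries and from 19.6 to 43.8% among WT libraries. Fosl2 took 23.1 ± 22.1% in KO and 42.7 ± 15% in WT. Atf3 took 9.59 ± 7.6% in KO and 1.94 ± 1.29% in WT, and 4.96 to 17.4% in KO libraries 2 to 5. When counts were divided by exon length first, Fosl2 took 10.3% in KO and 22.2% in WT, and Atf3 19.6% in KO and 3.96% in WT. The 3 FOS members then took 43.5% of KO library 3 and 57.3 to 87.4% of the other KO libraries, against 59.7 to 80.1% of the WT libraries. The 3 FOS members had 1.54, 89.6, 5.46, 19.7 and 1570 counts per count of the 3 JUN members in KO libraries 1 to 5, against 14.3, 13.1, 3.94, 4.23 and 11.7 in WT libraries 1 to 5. KO libraries 2, 4 and 5 lay above the WT range of this ratio and KO library 1 below it. The 8 genes together took 0.0211 to 0.639% of all counts in KO libraries, against 0.188 to 0.467% in WT libraries.

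**Figure D3:**
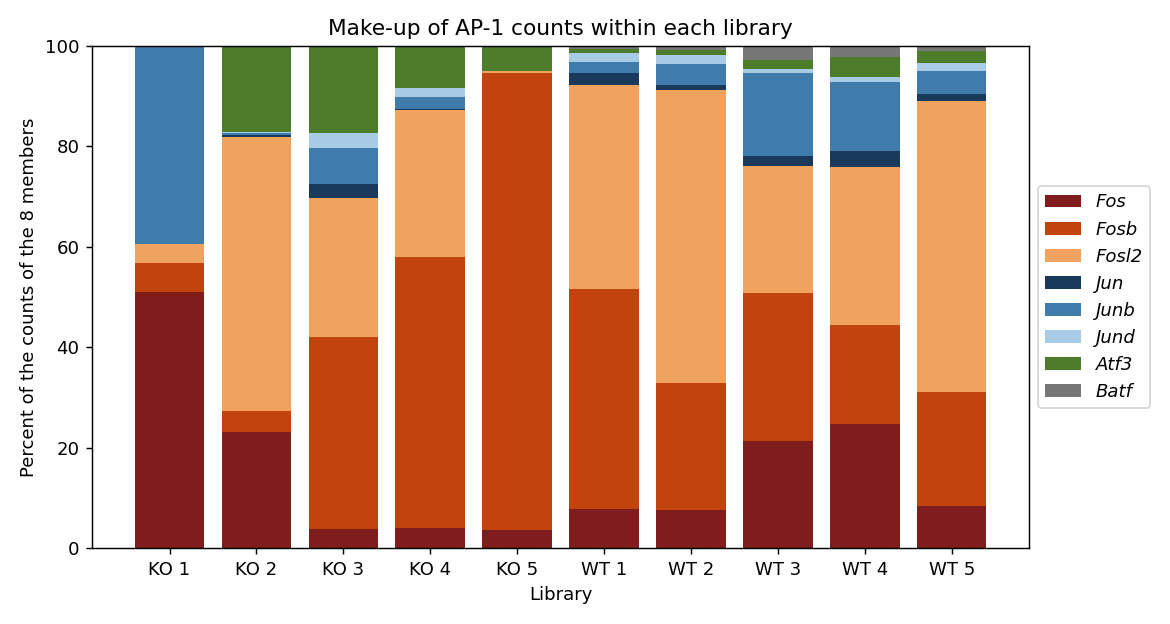
Share of each AP-1 member in the summed counts of the 8 members, 1 bar per library with the KO libraries at the left. Fosb makes up 91.1% of KO library 5 and Fos and Junb most of KO library 1, while the WT bars are mostly Fosb and Fosl2; the Atf3 segment is 4.96 to 17.4% in KO libraries 2 to 5 and 0.646 to 3.91% in WT libraries.

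By RPKM, the library-size CPM divided by kilobases of merged exon, the KO order was Fosb (309 ± 385), Atf3 (179 ± 123), Fos (137 ± 158), Fosl2 (93.2 ± 101), Junb (36.3 ± 34.4), Jund (21.3 ± 27.4), Jun (6.22 ± 9.94) and Batf (0). The WT order was Fos (159 ± 47.2), Fosl2 (156 ± 111), Fosb (140 ± 56.2), Junb (94.2 ± 49.1), Jund (29.2 ± 17.3), Batf (28.8 ± 11.3), Atf3 (26.4 ± 16.4) and Jun (17.4 ± 3.08). Neighbours in either order differed by less than the larger of their SDs, apart from Junb and Jund in WT. Atf3 was thus nearer the top of the order in KO than in WT. Protein-coding genes that lie inside an intron of another gene were at 0 in every library in 98.9% of 803 cases, against 31.9% of 21195 others, and whether intronic reads were counted is not given in the sources used here. Per kilobase of the whole gene span, Atf3, which spans 47744 bases, was at 8.07 ± 5.53 in KO and 1.19 ± 0.739 in WT, the lowest of the members in WT. Its place among the members therefore depends on the length used, and its difference between the groups does not.

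By pattern over the 10 libraries, the genes nearest to Fos were the ribosomal protein gene Rpl23, Rpl10a-ps1, Rps20 and Rpl19-ps11, 2 of them pseudogenes by name that may share reads with their parent genes. Likeness was the root mean square difference of centred log2(TMM-scaled CPM + 1), which was 0.413 to 0.561 for these 4 and had a median of 2.52 over the 7180 genes compared with Fos. The nearest to Junb included Thoc7, Rps26 and Arid5a (0.7 to 0.911), and the nearest to Batf were Etfdh, Tardbp, Axl and Slc35e1 (0.217 to 0.295). Each of these last 4 had at most 2 counts in every KO library.

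Of the other AP-1 and related leucine zipper genes, 13 were listed and 8 tested, and with edgeR 0 were lower, 0 higher and 8 did not pass. Their median edgeR log2 fold change was 1.72, against −0.47 for all tested genes. By the difference in mean log2(TMM-scaled CPM + 1), KO minus WT, only Crem (2.23) and Atf2 (1.22) were higher. The rest of the tested genes in this list were lower, from −1.44 for Jdp2 to −3.73 for Atf4. The direction of the listed genes thus depended on the measure. At an unadjusted edgeR p under 0.05, 2 were higher, and at adjusted p-values 2 were higher with DESeq2, 1 with the exact permutation test and 0 with limma-voom. Over all genes, DESeq2 called 1512 of 11211 higher and 2611 lower, and limma-voom 71 of 7490 higher and 2487 lower. The exact permutation test called 0.975% of tested genes higher and 32.2% lower. The share at an unadjusted p is not given here. Counts in the lists below are best read against these shares. Crem, a gene of cyclic AMP response factors and of the inhibitor ICER, came nearest, at an edgeR adjusted p of 0.0555 and a log2 fold change of 3.45 (SE 1.29). It had 2984, 3193, 852, 1291 and 505 counts in KO libraries 1 to 5, against 3301, 4351, 2909, 2268 and 3645 in WT libraries 1 to 5. By TMM-scaled CPM all 5 KO libraries exceeded all 5 WT libraries, which held for 0.774% of tested genes, and per library size 2 of them did. Its exact two-sided permutation p was 0.00794 (adjusted p = 0.0268). Atf2, a partner of JUN, stood at 696 ± 1200 TMM-scaled CPM in KO and 94.3 ± 12.7 CPM in WT (edgeR adjusted p = 0.135). Its medians were close, at 93.7 TMM-scaled CPM in KO and 98 CPM in WT, and KO library 1 held 2403 of its 4992 KO counts. Atf6 and Jdp2, which encodes a repressor of AP-1, had edgeR adjusted p-values of 0.491 and 0.526.

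Of the MAP kinases that act on AP-1, 13 of 14 were tested, 2 were lower in KO, 0 higher and 11 did not pass. Map2k1, the MEK1 kinase, had 2 counts in KO and 5658 in WT (log2 fold change −8.49, SE 1.76, edgeR adjusted p = 0.00163). Mapk9, the JUN kinase JNK2, had 1 count in KO and 4185 in WT (log2 fold change −8.37, SE 1.85, edgeR adjusted p = 0.00206). Map3k5 had 6093 counts in KO and 16818 in WT and did not pass (edgeR adjusted p = 0.309). In that list the exact permutation test and DESeq2 each called 2 lower and limma-voom 3, with 0 higher in each and 0 higher at an unadjusted edgeR p under 0.05. Map2k7 was listed at 0 in every library. Of the serum response and ternary complex factors, 7 of 9 were tested, 1 was lower in KO and 6 did not pass. Mkl2, a coactivator of serum response factor, had 1 count in KO and 1195 in WT (edgeR adjusted p = 0.00644), and Elk1, Elk4 and Mef2a had edgeR adjusted p-values of 0.487, 0.667 and 0.706. The exact permutation test and DESeq2 each called 1 of these factors lower and limma-voom 2. Srf itself was listed at 0 throughout, and whether the counting could detect it is not known.

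Of 18 other immediate early genes, 16 were tested and with edgeR 0 were lower, 0 higher and 16 did not pass. Their median edgeR log2 fold change was 1.25. The difference in mean log2(TMM-scaled CPM + 1), KO minus WT, ran from −4.12 to 1.06 and was negative for most of them, so their direction depended on the measure. At an unadjusted edgeR p under 0.05, 1 was higher, and at adjusted p-values DESeq2 called 2 higher and 1 lower, limma-voom 2 lower and the exact permutation test 0. Nfkbia, the NF-κB inhibitor, came nearest (log2 fold change 4.01, SE 1.66, edgeR adjusted p = 0.0858), with 10027 of its 12233 KO counts in KO library 5. All 2500 KO counts of Klf2 were in KO library 2 (edgeR adjusted p = 0.164). Dusp1, a phosphatase that turns MAP kinases off, stood at 2630 ± 2461 TMM-scaled CPM in KO and 653 ± 160 CPM in WT (edgeR adjusted p = 0.17), and Socs3 at 103 ± 210.1 CPM in KO and 7.54 ± 7.06 CPM in WT (edgeR adjusted p = 0.26).

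Of 10 partners that share composite sites with AP-1, 9 were tested, 1 was lower in KO and 8 did not pass. The 1 was Irf4, the partner of BATF, with 0, 1, 4, 3 and 4 counts in KO libraries 1 to 5, against 8801, 6738, 7448, 9774 and 13632 in WT libraries 1 to 5 (log2 fold change −8.61, SE 1.82, edgeR adjusted p = 0.00168). Batf and Irf4 were therefore both near 0 in all 5 KO libraries, while 5 of the 8 members had over 3 counts in at least 4 of them. Of all tested genes 17.1% had over 3 counts in at least 4 KO libraries, and 22.3% had them in none. Irf4, with 4 counts in KO libraries 3 and 5, was not among the latter. Its WT level was 231 TMM-scaled CPM. Of the 681 tested genes at 100 to 1000 TMM-scaled CPM in WT, 0 had at most 3 counts in every KO library. Runx1, Rela and Nfkb1 came next and did not pass with edgeR (adjusted p = 0.233, 0.324 and 0.466). Rela was lower by the exact permutation test (p = 0.0159, adjusted p = 0.0478) and by limma-voom. Of the partners, the exact permutation test called 2 lower, limma-voom 4 and DESeq2 1, with 0 higher in each, and Irf8 was listed at 0 in every library. Of 10 listed ubiquitin ligases and cofactors of JUN and FOS, 8 were tested, 2 were lower in KO and 6 did not pass. These were Cops5, which encodes the JUN coactivator JAB1, with 1 count in KO and 2765 in WT (edgeR adjusted p = 0.00173), and Smurf1, with 3 counts in KO and 2750 in WT (edgeR adjusted p = 0.00592). Itch, the ligase that marks JUN and JUNB for degradation, did not pass with edgeR (adjusted p = 0.345), but all 5 KO libraries were below all WT libraries on both scales, its exact permutation p was 0.00794 (adjusted p = 0.0268), and limma-voom called it lower. Ncor1, a corepressor, did not pass with edgeR either (adjusted p = 0.402), but all 5 KO libraries exceeded all WT libraries by TMM-scaled CPM and 2 did per library size, its exact permutation p was 0.00794 (adjusted p = 0.0268), and DESeq2 called it higher. In that list the exact permutation test called 3 lower and 1 higher, DESeq2 2 lower and 1 higher, and limma-voom 4 lower and 0 higher. Over all genes, the exact permutation test called 32.2% lower and 0.975% higher. DESeq2 called 2611 lower and 1512 higher of 11211, and limma-voom 2487 lower and 71 higher of 7490. Over these 6 lists, 6 of 61 tested genes were lower with edgeR (9.84%) and 0 higher, against 27.1% lower and 1.5% higher over all tested genes. The lists were not matched to all tested genes by level in WT. At most 3 counts in every KO library were found for 13.1% of tested genes at 20 to 50 TMM-scaled CPM in WT. That share was 2.39% at 50 to 100 CPM and 0% at 100 to 1000 CPM.

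**Figure D4:**
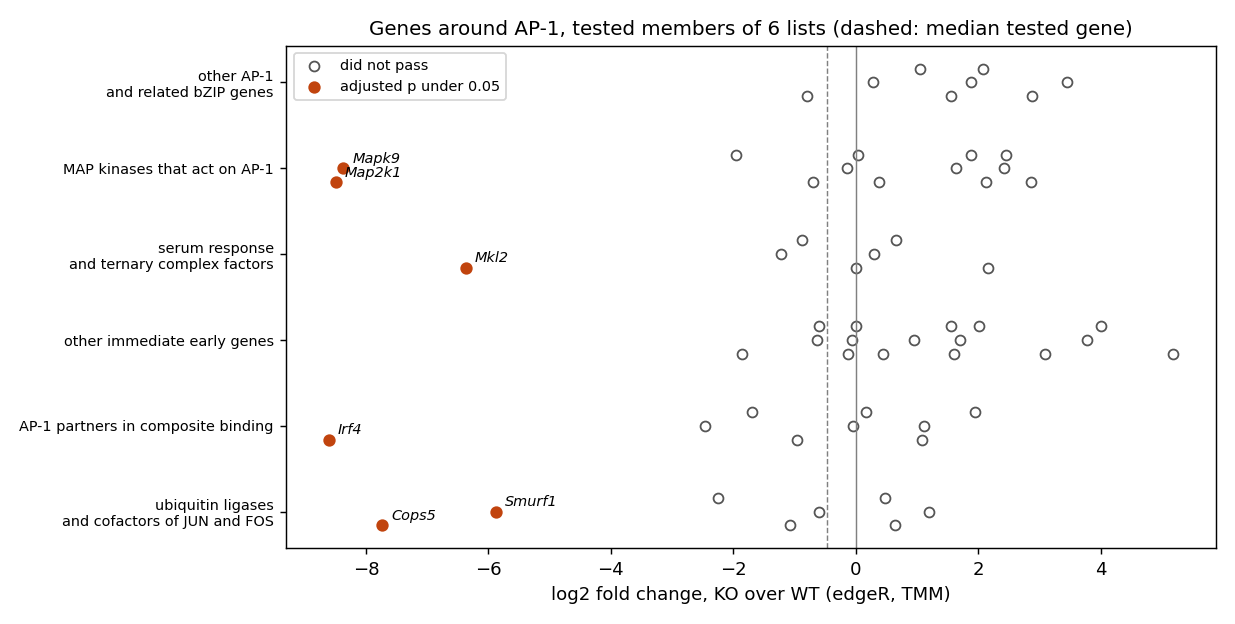
edgeR log2 fold change, KO over WT, of each tested member of 6 lists of genes around AP-1; each point is 1 gene, filled where the adjusted p is under 0.05, and the dashed line is the median tested gene at −0.47. The 6 filled points (Map2k1, Mapk9, Mkl2, Irf4, Cops5 and Smurf1) all lie at −5.87 or lower, and no point above 0 is filled.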

How the data were processed

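The authors deposited 1 table of read counts per gene, whole numbers for 54838 Ensembl identifiers in 10 libraries. Per the submitters' processing notes, STAR 2.6.0c, SAMtools 1.8, HTSeq 0.9.1 and GRCm38 were used, and per the labels the libraries were made with a stranded total RNA kit. Of the annotation release, strand setting and read filters, nothing is stated in the labels or notes.

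From these counts, genes were kept by filterByExpr (minimum count 10), leaving 7490, scaled by TMM and tested KO against WT with edgeR 4.0.16 (R 4.3.3) by the quasi-likelihood test, with Benjamini-Hochberg adjustment over all of them at 0.05. No covariate was used. For single members, log2(TMM-scaled CPM + 1) was also compared by exact permutation, two-sided, over 252 assignments. DESeq2 1.42.0, limma-voom (limma 3.58.1), other scalings and filters, thinned counts and left-out libraries served as alternatives. The fit was tested on simulated data. Named genes were all 8 members, up to 4 genes of smallest p in each of 6 lists, and the 4 genes nearest in pattern to Fos, Junb and Batf. Some genes that this rule picks are not reported here. The members and lists were chosen with earlier results of these data known. Promoter windows came from RefSeq (GRCm38.p6) and positions and lengths from the GENCODE annotation of GRCm38. KO and WT numbers name libraries and pair none. A gene counted as missing from a library at 3 or fewer counts. Reads carried no stated molecular identifiers, so floors cover counting error only.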

Additional observations from a re-analysis of the deposited data

Results flagged for a closer look

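Jun in KO library 3 stood apart from the rest of its group. It had 89.2 TMM-scaled CPM there, against 0 to 22.2 TMM-scaled CPM in the other 4 KO libraries, and its gap to the nearest of them was a share of 0.751 of the group's whole range, above the critical share of 0.71 for 5 libraries. For normally distributed values, chance alone gives such a gap in about 1 in 20 groups, and 15 groups were examined. The CPM values here include libraries at 0 and need not follow that rate. The antisense gene Junos had 857 counts in that library and 0 to 30 counts in the other KO libraries, and its part in the Jun counts was not tested.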

How the results depend on the processing

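Batf was lower in all 19 alternative fits, and the count of AP-1 members lower in KO was 1 in each. The count of members higher was 1 as reported, 0 with library size alone, limma-voom, no filter on low counts, a minimum of 30 counts or thinned counts, 2 with DESeq2, and 0 to 2 when 1 library was left out (0 without any 1 WT library). For Atf3 the adjusted p was 0.118 with limma-voom, 0.0835 with no filter, 0.051 with the minimum of 30 and 0.0572 with thinned counts. Over all genes, 112 were higher as reported, against 193 with RLE size factors, 49 with library size alone, 1512 with DESeq2, 71 with limma-voom, 2345 with no filter, 61 with the minimum of 30, 51 with thinned counts, 348 without KO libraries 1 and 5, and 82 to 333 when 1 library was left out (215 to 333 without any 1 KO library, 82 to 96 without any 1 WT library). Lower genes numbered 2027 as reported, 1331 with thinned counts, 3024 with no filter, 3291 without KO libraries 1 and 5, and 1734 to 3350 when 1 library was left out (3021 to 3350 without any 1 KO library).

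The log2 fold change changed sign with library size alone for Fos (−0.18), Fosl2 (−0.71), Junb (−1.31) and Jund (−0.39), with limma-voom for Fosl2 (−0.25), Junb (−0.42) and Jund (−3.30), and for Jun without KO libraries 1 and 5 (0.27). The median tested gene was at −1.77 with library size alone and −3.58 with limma-voom, below each value listed for those settings. When 1 library was left out the log2 fold change ran from −0.23 (without KO library 2) to 0.826 for Fosl2. It ran from −0.26 (without KO library 1) to 1.19 for Junb and from −0.065 (without KO library 4) to 1.03 for Jund. The permutation difference changed sign with library size for Fos (−0.72) and Fosb (−0.63). For Fosl2 (−0.91), Junb (−0.48) and Jund (−1.28) it was already negative with TMM, opposite in sign to their edgeR log2 fold changes. The cause was not tested. Leaving out KO libraries 1 and 5 together, the permutation test without KO library 1 and the shares per kilobase of gene span were chosen after seeing the data. No paired analysis was possible because the numbers of the libraries are in accession order and pair nothing. Every KO library had a smaller total than every WT library. The numbers in the library titles also fall in separate ranges for KO and WT, and what they stand for is not stated. Genotype thus cannot be told apart from library depth or from whatever these numbers mark. The smaller KO totals limit what can be said of genes near 0 in KO.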
